A study of Mus musculus with 5 samples.

Results

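High endothelial venules are the vessels through which lymphocytes leave the blood to enter lymph nodes. Their tall endothelial cells carry sialomucins, proteins dense in O-linked sugar chains, that display a sulfated, fucosylated and sialylated sugar to which arriving lymphocytes bind. A chain of enzymes builds that sugar: a core branch is added, extended, then capped with sialic acid, fucose and sulfate. In the thymus, blood-borne progenitors enter through venules near the border of cortex and medulla, where P-selectin and its ligand are the better known pair.

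The genes described here are the mucins Glycam1, Madcam1, Cd34 and Podxl, the glycan enzymes Gcnt1, Fut7, St3gal6, Chst2 and Chst4, and the autotaxin gene Enpp2. They were taken as every probe set whose platform annotation gave one of these 10 symbols. This found 11 of the 22626 non-control probe sets, for 9 of the 10 genes, and Enpp2 is not analysed here. Podxl and St3gal6 had 2 probe sets each. The genes were chosen by symbol, but the wide spread of the Glycam1 values over the arrays was known at that point, so those values are a description and carry no test.

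The data were 5 Affymetrix mouse expression arrays of thymic endothelial cells from female C57BL/6J mice aged 6 to 8 weeks. Of these, 2 arrays came from mice that had received 550 cGy of sublethal total body irradiation from a cesium source 4 days earlier, and given no hematopoietic rescue, and 3 from untreated mice (day 0). Magnetic depletion of CD45-positive blood cells preceded the sort, in which VE-cadherin-positive cells without CD45 or EpCAM were kept. Each array held a pool of several mice, so p-values reflect only how these pools vary, and some of that variation may be technical. The labels call the irradiated cells CD45-negative stromal cells and the untreated ones endothelial cells, although the protocol gives 1 sort for both. Values are the authors' log2 expression values, and a value above 4 on at least 2 arrays was needed for a test.

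The endothelial label was checked with 11 endothelial genes, and all 11 passed that level. Cdh5, which encodes VE-cadherin, read 11.38 and 11.40 on the irradiated arrays, against 11.57, 11.51 and 11.64 on the untreated ones. Pecam1 read 9.67 and 10.05, against 9.70, 9.63 and 9.85. The limma adjusted p was 0.337 for Cdh5 and 0.629 for Pecam1, so neither was called. Genes of cells that the sort should have removed were also above the level. Ptprc, which encodes CD45, read 6.68 and 6.38 on the irradiated arrays, against 6.86, 6.08 and 6.63 on the untreated ones. Across all 5 arrays, 64.8% to 65.4% of probe sets lay above 4.

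Glycam1 encodes a secreted mucin of high endothelial venules that carries such sugars, and in mice it is also made by the lactating mammary gland. Its probe set, 1424825_a_at, read 3.87 and 7.66 on the irradiated arrays of replicates 1 and 2, against 11.77, 11.05 and 10.03 on the untreated arrays. Both irradiated arrays lay below all untreated ones, by at least 2.36 log2 units, and they stood far from each other. The means were 5.77 ± 2.68 (SD, n = 2) on irradiated and 10.95 ± 0.88 (SD, n = 3) on untreated arrays, a difference of -5.18. Without irradiated replicate 1 the difference was -3.28, and without irradiated replicate 2 it was -7.08. In linear terms the untreated mean was 9.75 times the value of irradiated replicate 2. The value of irradiated replicate 1 lay under 4, so every size that rests on it, the mean difference included, depends on a background value. With that value set to 4, the untreated mean was at least 123-fold higher than irradiated replicate 1, and the mean difference was at least 5.12 log2 units in size. In bulk samples such as these, fewer cells that make a transcript and less of it per cell cannot be told apart.

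**Figure D1:**
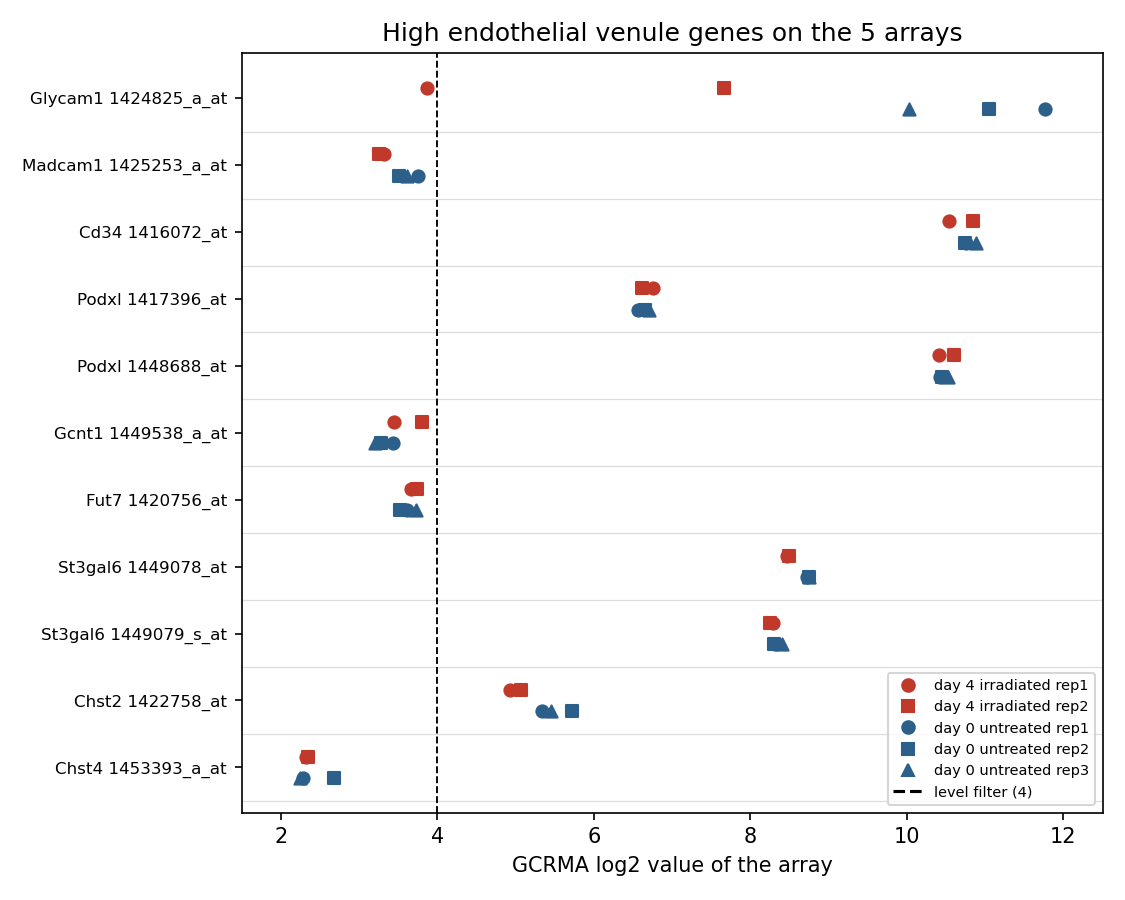
Each row is a probe set and each point an array, with the 2 irradiated arrays (red) above the 3 untreated arrays (blue) and the marker shape giving the replicate number; the horizontal axis is the log2 value and the dashed line the level of 4 used as a filter. Glycam1 spans 7.90 log2 units over the arrays, while the Madcam1, Gcnt1, Fut7 and Chst4 points all lie left of the line; levels of different probe sets are not comparable.

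The spread of Glycam1 between the irradiated pools was 3.79 log2 units, and at least 3.66 with replicate 1 set to 4, which makes replicate 2 at least 12.7-fold higher. For scale, the median of that range over the 15065 probe sets tested was 0.19. This wide spread is what drew attention to the gene, so its place among the others is a description and no finding. A range over 1 unit was found for 208 probe sets and over 3 units for 3. Among the untreated pools Glycam1 spanned 1.74 units, or 3.35-fold, against a median range of 0.20, and 54 probe sets spanned more. The difference between the groups was lower for 4 probe sets, each of which the annotation gives several symbols, and they are not named here. After Glycam1, the widest ranges between the irradiated pools among probe sets with 1 symbol belonged to Ces1d, Cyp2e1, Pth and Adipoq, genes picked out after their values were seen. Adipoq encodes the fat cell hormone adiponectin, and it read 9.78 and 7.12 on irradiated replicates 1 and 2, against 6.28, 7.68 and 6.95 on the untreated arrays. Pth, which encodes parathyroid hormone, read 6.74 and 4.00, against 3.38, 4.25 and 3.72. These genes were higher on irradiated replicate 1, the array on which Glycam1 was lowest, and their part in its spread was not tested.

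**Figure D2:**
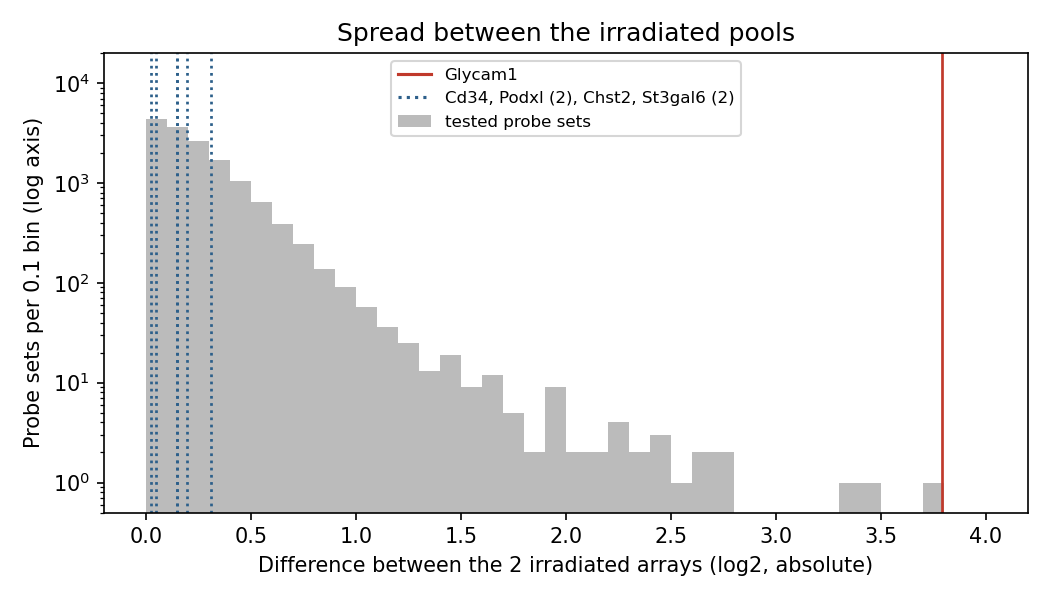
The horizontal axis is the absolute log2 difference between the 2 irradiated arrays and the vertical axis, on a log scale, the number of tested probe sets in each bin of 0.1 units. Glycam1 (red line) stands at 3.79, the spread that was known when the genes were chosen and one that rests on a value under 4, while the other tested genes of the group (dotted lines) lie between 0.02 and 0.31.

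The promoter of Glycam1 is shown because no other gene of the group varied as widely, and that of Madcam1 because TNF is known to induce this gene through NF-kB sites in its promoter. Both are the 250 bases before the RefSeq start on GRCm38.p6, at chr15:103565082-103565331 on the minus strand for Glycam1 and chr10:79664309-79664558 on the plus strand for Madcam1. Capitals mark matches, on either strand, to the STAT pattern TTCNNNGAA or to the NF-kB consensus.
Glycam1: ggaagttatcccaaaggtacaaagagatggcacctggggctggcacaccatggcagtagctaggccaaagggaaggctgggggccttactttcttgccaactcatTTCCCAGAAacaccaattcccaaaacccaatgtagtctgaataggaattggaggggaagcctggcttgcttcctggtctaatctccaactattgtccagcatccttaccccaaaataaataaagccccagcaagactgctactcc
Madcam1: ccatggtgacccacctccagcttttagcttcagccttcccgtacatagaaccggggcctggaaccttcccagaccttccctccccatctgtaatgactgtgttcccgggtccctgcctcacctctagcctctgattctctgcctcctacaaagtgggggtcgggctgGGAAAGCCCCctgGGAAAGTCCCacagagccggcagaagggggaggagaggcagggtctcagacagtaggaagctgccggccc
The Glycam1 window held 1 STAT match, TTCCCAGAA, from base -145 to base -137, counted back from the start. The Madcam1 window held 2 NF-kB matches that do not overlap, from -83 to -74 and from -70 to -61. The STAT pattern occurs in 7.02% of the 32851 promoter windows of the same length and the NF-kB consensus in 7.25%. RefSeq entries were matched for 8 of the 10 genes, and in their 12 windows the one further match to either was an NF-kB match in St3gal6, from -123 to -114. The TATAAA pattern, in 12.4% of windows, matched only in Gcnt1.

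Madcam1 encodes the mucosal addressin that binds the integrin formed by Itga4 and Itgb7 of lymphocytes, and it can carry the sulfated sugars too. Its probe set, 1425253_a_at, read 3.32 and 3.26 on the irradiated arrays, against 3.75, 3.51 and 3.62 on the untreated ones. The irradiated values lay below all untreated ones, but every value was under 4. It was therefore not tested, and the difference of -0.33 is one between background values.

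The other mucins, found on most blood vessel endothelium, did not pass the test. Cd34, a transmembrane sialomucin of endothelial and blood progenitor cells, read by 1416072_at, had 10.53 and 10.84 on the irradiated arrays, against 10.75, 10.75 and 10.88 on the untreated ones. The groups overlapped, and its difference of -0.11 had a 95% interval of -0.41 to 0.20 (limma adjusted p = 0.666). The sign turned without irradiated replicate 1, at 0.046. Podxl encodes podocalyxin, a relative of CD34. Its brighter probe set, 1448688_at, read 10.41 and 10.61 on the irradiated arrays, against 10.43, 10.45 and 10.53 on the untreated ones. Its dimmer one, 1417396_at, read 6.76 and 6.61, against 6.56, 6.66 and 6.70. On both, irradiated and untreated values overlapped, and the difference was 0.04 with an upper 95% bound of 0.30. The lower bounds were -0.22 for the brighter probe set and -0.21 for the dimmer, with limma adjusted p of 0.862 and 0.841. The sign turned for the brighter probe set without irradiated replicate 2 (-0.058) and for the dimmer without irradiated replicate 1 (-0.029).

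Of the enzymes, Gcnt1 starts the core 2 branch on which the lymphocyte-binding sugar is built, and Fut7 adds its fucose. Gcnt1 (1449538_a_at) read 3.44 and 3.80 on the irradiated arrays, against 3.43, 3.29 and 3.20 on the untreated ones. Fut7 (1420756_at) read 3.67 and 3.74, against 3.61, 3.52 and 3.73. Both genes were under 4 on every array and were not tested. The irradiated values of Gcnt1 lay above the untreated ones by as little as 0.01, and those of Fut7 overlapped them.

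St3gal6 encodes a sialyltransferase that adds sialic acid to galactose. Its first probe set, 1449078_at, read 8.47 and 8.50 on the irradiated arrays, against 8.73, 8.75 and 8.74 on the untreated ones. The groups did not overlap, and the arrays of a group lay within 0.03 of each other. The difference was -0.25 ± 0.09 (SE), with a 95% interval of -0.47 to -0.04, and with adjustment over all probe sets limma made no call (adjusted p = 0.197). The other probe set, 1449079_s_at, whose probes may also match related transcripts, read 8.29 and 8.25, against 8.32, 8.30 and 8.40. It had the same sign but a difference of -0.07, with an interval of -0.29 to 0.15 (limma adjusted p = 0.701).

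Chst2 and Chst4 encode the sulfotransferases that put sulfate on N-acetylglucosamine, with Chst4 the one largely limited to high endothelium. Chst2 (1422758_at) read 4.93 and 5.07 on the irradiated arrays, against 5.34, 5.72 and 5.45 on the untreated ones. Both irradiated arrays were lower than all untreated arrays. The difference was -0.50 ± 0.14 (SE), with a 95% interval of -0.84 to -0.16, and limma made no call (adjusted p = 0.139). Chst4 (1453393_a_at) read 2.33 and 2.35, against 2.29, 2.68 and 2.25. Its values overlapped and were far under the level of 4 on every array, so it was not tested.

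Glycam1 aside, 6 probe sets of 4 genes were tested, and 0 passed at an adjusted p under 0.05 by limma, against 1.39% of all probe sets tested (0.717% higher and 0.677% lower). An unadjusted p under 0.05 was found for 2 of the 6, those of Chst2 and the first St3gal6 probe set, against 19.4% of all. The irradiated arrays lay below all untreated arrays for 3 of the 6, of which 2 are St3gal6, against 20.7% of all, and above them for 0, against 18.9%. The 4 probe sets of Madcam1, Chst4, Fut7 and Gcnt1 were above 4 on 0 arrays. Glycam1 was thus read at high values on untreated arrays on which Chst4, Fut7, Gcnt1 and Madcam1 were at background. What a background value on this array says of the transcript depends on the probes, and no detection calls were at hand.

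Companion genes were read from 9 lists written with earlier results of these data known. The lists cover sialomucins and enzymes of the sugar, and also the lymphotoxin pathway, other high endothelial and homing genes, and leukocyte homing receptors. Receptors and phosphatases of lysophosphatidic acid make up the last list. Of 116 listed genes, 102 had a probe set and 79 were tested, each by its brightest probe set. By limma, 1 rose and 4 fell, against 0.884% and 0.794% of the 8940 genes tested. The median difference of the 79 was -0.05, against -0.02 over all genes. The gene that rose was Selp, and those that fell were Chst7, Ltb, Ubd and Ccr9. Of these, only Chst7 is on a list of mucins or of glycan and sulfation genes.

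**Figure D3:**
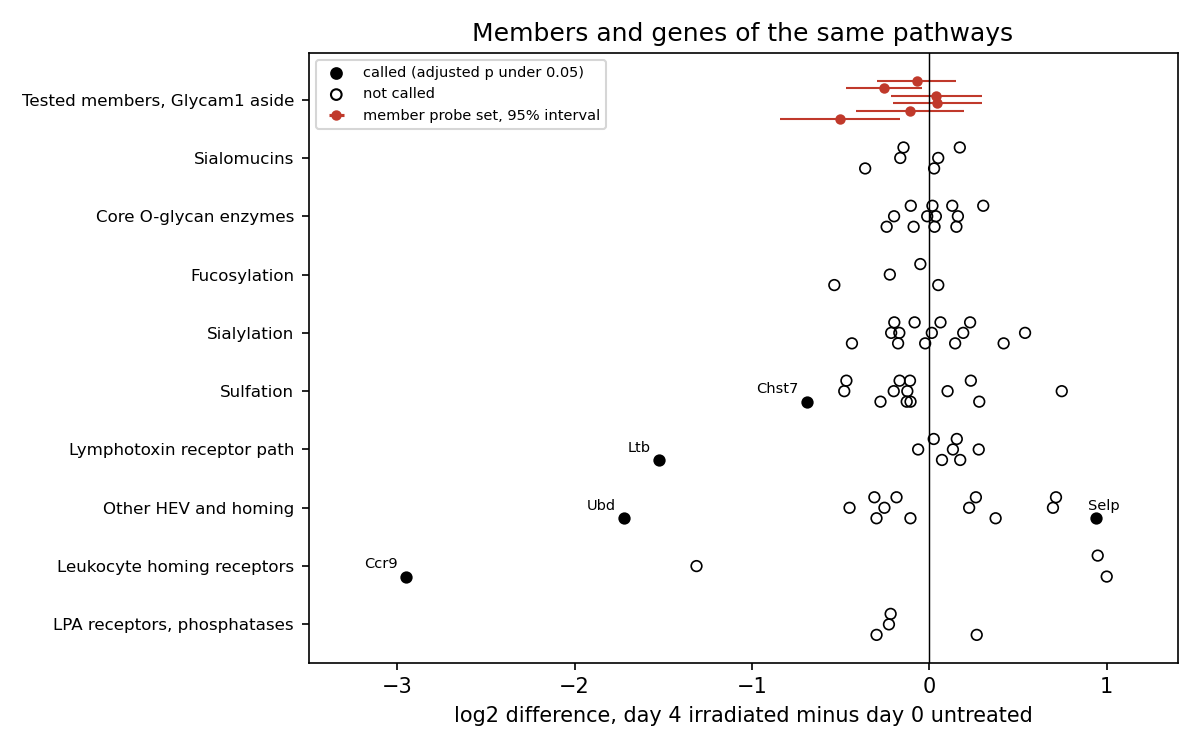
The horizontal axis is the log2 difference of irradiated minus untreated arrays; each circle is a tested gene, in the row of its list, filled where the limma adjusted p was under 0.05. Red points are the 6 tested probe sets of the group without Glycam1, with 95% intervals (top row, from Chst2 at -0.50 at the bottom to the second St3gal6 probe set at the top); the called genes are Ccr9, Ubd, Ltb, Chst7 and Selp. Ccr9 was under 4 on both irradiated arrays and Ltb on irradiated replicate 2, so the position of Ccr9, and in part that of Ltb, depends on background values.

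In the sulfation list 1 of 14 tested genes fell and 0 rose, with a median of -0.13. Chst7, a sulfotransferase of the same family as Chst2, read 6.89 and 6.90 on the irradiated arrays, against 7.63, 7.63 and 7.51 on the untreated ones. The 2 groups stood clearly apart, at a difference of -0.69 ± 0.09 (SE; limma adjusted p = 0.0362). The call was lost without any 1 of the 5 arrays, at adjusted p of 0.0641 to 0.139, and with the replicate number as a block (0.0583), while the difference stayed between -0.73 and -0.67. Papss1, Papss2 and Slc35b2, which make and carry the sulfate donor, differed by -0.17, -0.12 and -0.20 and did not pass. Of the 14 differences, 10 were below 0 and 4 above, against 4858 and 4082 of the 8940 genes tested. Tpst1 differed by -0.48 (limma adjusted p = 0.0786). Sulf2, at 0.75 (limma adjusted p = 0.107), and Chst1, at 0.28 (0.232), went the other way.

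None of the tested genes passed the limma test in the lists for core O-glycan enzymes (12 tested, 1 at an unadjusted p under 0.05), fucosylation (4 tested, 1 unadjusted) and sialylation (14 tested, 3 unadjusted). Their medians were 0.02, -0.14 and -0.0042. Over all 8940 genes tested, 1798 had an unadjusted p under 0.05 by limma. Fut4, the other fucosyltransferase of leukocyte and endothelial selectin ligands, read 2.59 and 2.96 on the irradiated arrays, against 2.86, 2.86 and 2.89 on the untreated ones, all at background. Fut8, which adds core fucose to N-glycans, differed by -0.54 (adjusted p = 0.0786). Gne, the first enzyme of sialic acid synthesis, differed by 0.54 (adjusted p = 0.0788).

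Among 6 other sialomucins, 0 passed the limma test and 0 had an unadjusted p under 0.05 (median -0.06). Emcn, the endomucin of capillary and venous endothelium, read 11.07 and 11.23 on the irradiated arrays, against 11.28, 11.27 and 11.34 on the untreated ones. The irradiated values lay just below, and the difference of -0.15 did not pass (adjusted p = 0.453).

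The lymphotoxin beta receptor drives the high endothelial state in lymph nodes through noncanonical NF-kB signalling. Of the 8 tested genes of that pathway 1 fell and 0 rose (median 0.10). Ltbr itself read 8.12 and 8.11 on the irradiated arrays, against 7.85, 8.07 and 7.96 on the untreated ones, a difference of 0.16 (limma adjusted p = 0.452). Ltb, the lymphotoxin subunit made by lymphocytes, read 4.14 and 3.86, against 5.50, 5.56 and 5.52. It fell by 1.52 on the log2 scale (limma adjusted p = 0.00771). Irradiated replicate 2 was under 4, and with that value set to 4 Ltb was at least 2.74-fold lower on the irradiated arrays. Without untreated replicate 3 its limma adjusted p was 0.0509.

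Of 13 tested genes in the list of other high endothelial and homing genes, 1 rose and 1 fell (median -0.11). Ubd, a ubiquitin-like gene found in lymph node high endothelium and also in medullary thymic epithelium, read 8.28 and 8.61 on the irradiated arrays, against 10.60, 9.88 and 10.02 on the untreated ones. It fell by 1.72 (limma adjusted p = 0.0362), with the groups more than a unit apart. Selp, which encodes P-selectin, read 10.001 and 9.966, against 9.10, 9.22 and 8.80, and rose by 0.94 (limma adjusted p = 0.0464). Ackr1, the atypical chemokine receptor of venules, read 8.25 and 8.84, against 7.90, 8.20 and 7.43. Its irradiated values were the highest, at a difference of 0.70 that did not pass (adjusted p = 0.233). The Selp call was lost with median centring (0.0511) and without any 1 of the arrays (0.0636 to 0.160). That of Ubd was lost without irradiated replicate 1 (0.156), irradiated replicate 2 (0.0656) or untreated replicate 3 (0.116).

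Leukocyte homing receptors, the partners on the arriving cells, had 4 tested genes, of which 1 fell and 0 rose. Their differences ran both ways around a median of -0.18. Ccr9, a thymus and gut homing receptor of T lineage cells, read 3.31 and 2.56 on the irradiated arrays, against 6.13, 5.36 and 6.17 on the untreated ones. It fell (limma adjusted p = 0.0199), but it passed the level of 4 through the untreated arrays alone. Its size is therefore a bound: with the irradiated values set to 4, it was at least 3.70-fold lower on the irradiated arrays. Its adjusted p was 0.102 without irradiated replicate 1, 0.0620 without irradiated replicate 2 and 0.0939 without untreated replicate 3. The other 3 tested genes did not pass. Cxcr4, a chemokine receptor of many leukocytes and of some endothelium, read 7.54 and 7.06 on the irradiated arrays, against 6.28, 6.24 and 6.54 on the untreated ones. Itgb2, the beta 2 integrin chain of leukocytes, read 6.48 and 6.09, against 5.64, 4.95 and 5.26. Irradiated values lay above all untreated ones for both genes, at differences of 0.95 for Cxcr4 (limma adjusted p = 0.0689) and 1.001 for Itgb2 (0.0972). Both were called higher with the replicate block, and Cxcr4 also with 1 probe set per gene and with the intensity trend. In the block fit untreated replicate 3 adds nothing to the difference. Ccr7, a receptor that guides lymphocytes, read 3.37 and 4.02, against 5.27, 4.86 and 4.91 (limma adjusted p = 0.0600). It was called lower with 1 probe set per gene and with the intensity trend. Irradiated replicate 1 was under 4, so the Ccr7 difference and these calls depend in part on a background value. Itga4 and Itgb7 were under 4 on all arrays. Of 4 tested genes for lysophosphatidic acid receptors and phosphatases, which act on the product of autotaxin, 0 passed, also at an unadjusted p under 0.05 (median -0.22).

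Markers of other cells, of which some lists held called genes and others none, are given beside the Glycam1 values. Among 10 tested thymic epithelial genes, 9 differences were below 0, against 4858 of all 8940 genes tested. By limma 0 of the 10 passed, and 5 had an unadjusted p under 0.05, against 1798 of the 8940. The mean level of the 11 epithelial genes was 5.85 and 5.28 on the irradiated arrays, against 6.52, 6.00 and 6.17 on the untreated ones. Aire, the regulator of tissue-restricted genes in medullary epithelium, read 3.95 and 4.50, against 5.76, 5.24 and 5.20 (adjusted p = 0.0815). Epcam read 7.17 and 5.67, against 7.27, 6.60 and 6.83, and its groups overlapped (adjusted p = 0.582). Foxn1, which defines thymic epithelium, was under 4 on every array, the only listed epithelial gene on the array that did not pass the level. The keratin gene Krt8 read 9.58 and 8.34 on the irradiated arrays, against 10.25, 9.41 and 9.63 on the untreated ones. Krt18 read 9.80 and 8.41, against 9.75, 8.99 and 9.07, and Krt5 7.06 and 6.29, against 6.70, 6.19 and 6.14. For each of these keratin genes the groups overlapped. The part of epithelial cells in the Glycam1 values was not tested.

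Milk protein genes, which share with Glycam1 their expression in the mammary gland, are also known among the tissue-restricted antigens of medullary epithelium. Of 8 such genes 3 were tested, and Csn2 and Wfdc18 fell, while 0.794% of all 8940 genes tested were called lower. Csn2, which encodes beta-casein, read 4.26 and 2.93 on the irradiated arrays, against 7.89, 6.59 and 7.29 on the untreated ones, and was lower (limma adjusted p = 0.0356), by at least 8.73-fold with the irradiated value under 4 set to 4. Wfdc18 read 6.35 and 6.00, against 9.40, 8.09 and 9.12, a difference of -2.70 (limma adjusted p = 0.0380). On the irradiated arrays their order was the opposite of that of Glycam1, since replicate 1 was the higher. For Csn2 this rests on a replicate 2 value under 4, and for Glycam1 on a replicate 1 value under 4. The second Csn2 probe set read 3.25 and 3.15 there, both under 4. Csn3, the kappa-casein gene, was under 4 on every array. Both calls were lost without either irradiated array or without untreated replicate 1 or 3, at adjusted p of 0.0537 to 0.132 for Csn2 and 0.0582 to 0.151 for Wfdc18. The part of such transcripts in the Glycam1 values was not tested.

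**Figure D4:**
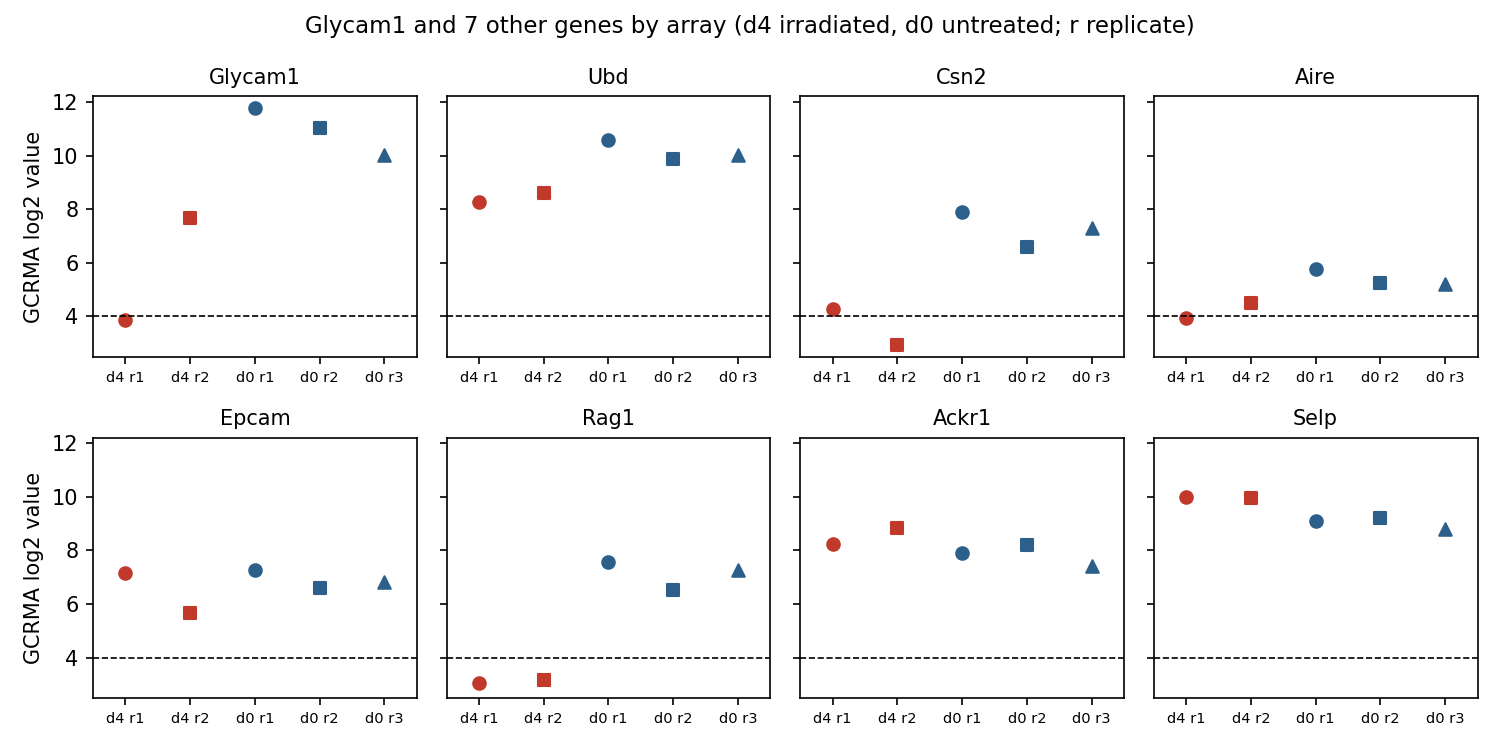
Log2 value (vertical axis, the same in all panels) of 8 genes on irradiated replicates 1 and 2 (red) and untreated replicates 1, 2 and 3 (blue); the dashed line is the level of 4. Glycam1, Ubd, Aire, Rag1 and Ackr1 are lower on irradiated replicate 1 than on replicate 2, and Csn2, Epcam and Selp are higher there. Selp and Ackr1 are higher on both irradiated arrays than on the untreated ones. Glycam1 and Aire on irradiated replicate 1, Csn2 on irradiated replicate 2 and Rag1 on both irradiated arrays lie under 4.

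Of 12 marker lists, that for milk proteins included, the others had these limma calls. For scale, 0.794% of all 8940 genes tested were called lower and 0.884% higher. Thymocyte genes had 4 of 9 tested lower and 0 higher, among them Rag1, Satb1 and Cd8b1. B cell genes had 2 of 3 lower, Ms4a1 and Cd79b. Neutrophil genes had 2 of 3 lower, S100a8 and S100a9, and erythroid and platelet genes 1 of 4 lower, Alas2. Of these 8 genes, all but Satb1 were under 4 on both irradiated arrays and Satb1 on 1, so their sizes are bounds. With values under 4 set to 4, Rag1 was at least 8.65-fold, Satb1 8.17-fold, S100a8 4.93-fold and Ms4a1 1.33-fold lower on the irradiated arrays. The same bound was 4.44-fold for Alas2, 2.71-fold for S100a9, 2.32-fold for Cd8b1 and 1.56-fold for Cd79b. Macrophage and myeloid genes had 3 of 10 higher and 0 lower, which were Cd163, Fcgr1 and Cd14. Cd163 was under 4 on all untreated arrays and Fcgr1 on 2 of them, so by the same rule they were at least 4.67-fold and 4.42-fold higher on the irradiated arrays. The lists for blood endothelium, lymphatic endothelium, thymic epithelium, fibroblasts, pericytes and smooth muscle, and blood progenitors and mast cells had 0 calls, with 1, 0, 5, 2, 1 and 1 genes at an unadjusted p under 0.05. In the same order 11, 4, 10, 7, 8 and 2 genes were tested, and over all 8940 genes 1798 had such a p. The mean thymocyte level was 4.08 and 4.07 on the irradiated arrays, against 5.93, 5.21 and 5.69 on the untreated ones. The mean myeloid level was 7.08 and 6.97, against 6.07, 5.26 and 5.60.

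The genes whose profile over the 5 arrays was nearest to that of Glycam1 were sought by the root mean square difference after the mean of each profile was taken off. They were Rag1 at 1.43 log2 units, S100a8 at 1.54, 2210407C18Rik at 1.63, Trbv1 at 1.76 and Csn2, by its second probe set, at 1.76. These distances are large, and what the profiles shared was a low level on both irradiated arrays. None of the 5 had the gap between the irradiated arrays that Glycam1 had: Rag1 read 3.06 and 3.14 there, and S100a8, the nearest in this respect, 2.96 and 3.78. Rag1, S100a8 and this Csn2 probe set were under 4 on both irradiated arrays, where a gap could hardly be read. On irradiated replicate 1, 2210407C18Rik was under 4 too, as was Glycam1, whose own gap rests on that value. The other genes of the group spanned less than 1 unit over the arrays, the widest being Chst2 with 0.79, and were not compared in this way.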

How the data were processed

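Endothelial cells of irradiated and untreated mouse thymus were measured on 1-colour arrays. The deposited log2 values come from GCRMA run by the authors, as the submitters' processing notes name it. Neither the version of GCRMA nor the set of arrays normalized at once is stated in those notes. GCRMA sets the arrays to a common distribution, which hides a change common to most genes, and its correction for background makes low values uncertain. Array medians lay between 5.26 and 5.30.

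Probe sets were named from the platform annotation, checked by Entrez identifier against RefSeq. Of 20380 probe sets with 1 symbol, 20351 matched and 0 symbols changed. The 15065 non-control probe sets above 4 on at least 2 arrays were tested together. A gene above 4 in 1 group only, such as Ccr9, Rag1 and S100a8 on untreated arrays, passes this filter through that group alone, so counts over tested genes describe them and no more.

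The test was the moderated one of limma 3.58.1 (R 4.3.3; functions lmFit and eBayes; two-sided, no covariate, 3 residual and 3.09 prior degrees of freedom), with Benjamini-Hochberg adjustment over all probe sets tested. The number of arrays limits the precision. Differences are irradiated minus untreated. A gene of a list was read from its brightest tested probe set. The fit was tested on simulated data. Figures were drawn with matplotlib 3.10.9.

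The members, the lists and the tests were chosen with earlier results of these data known. Named were all member probe sets, up to 3 called genes in each direction per list, the 5 nearest profiles to any member spanning at least 1 log2 unit, and Emcn, Fut4, Ltbr, Ackr1, Csn2, Csn3, Aire, Cdh5, Pecam1, Epcam and Ptprc. A further gene of that rule is not reported here. Fut8, Gne, Papss1, Papss2, Slc35b2, Tpst1, Sulf2, Chst1, Cxcr4, Itgb2, Ccr7, Itga4, Itgb7, Foxn1, Krt5, Krt8, Krt14, Krt18, Ces1d, Cyp2e1, Pth and Adipoq lie outside it and were named after their values were seen. Where a called gene, or Glycam1, had values under 4, its size is also given with those values set to 4. Alternatives were 2 scalings of the arrays, other level filters, 1 probe set per gene, an intensity trend with robust fitting, the replicate number as a block, and leaving out each array.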

Additional observations from a re-analysis of the deposited data

How the results depend on the processing

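Under the 12 alternatives, 0 of the tested probe sets of Cd34, Podxl, St3gal6 and Chst2 passed the limma threshold, and the Chst2 difference stayed between -0.58 and -0.40 when single arrays were left out. The Glycam1 difference was -7.08 to -3.28 when single arrays were left out, the extremes being those without an irradiated array and the larger resting on a value under 4, and -5.64 with the replicate block. Calls over all probe sets depended on the arrays used: leaving out single arrays gave 6 to 128 higher and 9 to 111 lower calls, the fewest without irradiated replicate 1, against 108 and 102 with all arrays. An intensity trend with robust fitting gave 163 higher calls. The calls among companion genes, 1 higher and 4 lower, became 0 higher and 4 lower with median centring. They were 2 higher and 5 lower with 1 probe set per gene, and 2 higher and 6 lower with the intensity trend. With a level filter of 6 they were 1 higher and 3 lower. Leaving out single untreated arrays gave 0 higher and 0 to 3 lower. Why these counts changed was not tested. Signs turned only for values near 0: without irradiated replicate 1, Cd34 was at 0.046 (range -0.26 to 0.046) and the dimmer Podxl probe set at -0.029 (range -0.029 to 0.12), and without irradiated replicate 2 the brighter Podxl probe set was at -0.058 (range -0.058 to 0.14).

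The groups share replicate numbers 1 and 2, but nothing in the labels says that a number marks a shared batch. Deviations from the group means correlated across probe sets with r of 0.20 for number 1 and 0.08 for number 2, which with 2 shared numbers does not show pairing. With the replicate block, calls numbered 217 higher and 184 lower over all probe sets, and 3 higher and 3 lower among companion genes. Untreated replicate 3 is alone in its block and so adds nothing to the difference. The Glycam1 difference was -5.64 with the block and also without that array. No detection calls were at hand, so the background level of the 4 genes under the filter cannot be set more closely.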
